A study of Homo sapiens with 12 samples.

Results

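The 10 genes described here are the D-type cyclins CCND1, CCND2 and CCND3, the E-type cyclins CCNE1 and CCNE2, cyclin A2 (CCNA2), the B-type cyclins CCNB1 and CCNB2, and the kinases CDK1 and CDK2. Each was taken as the row carrying its symbol in a table of 19516 genes with a symbol, and all 10 were among the 14133 genes with enough reads to test. The lookup by symbol used no measured value, but the members were chosen with earlier results of these data known. The libraries come from MDA-MB-231 and HCC1937, established human breast cancer cell lines from triple-negative tumours, each labelled wild type and each sampled after 72 h. MDA-MB-231 was kept in DMEM and treated with 140 µg/mL of an aqueous extract of the succulent Kalanchoe pinnata, and HCC1937 was kept in RPMI and treated with 66 µg/mL; both media held fetal bovine serum and antibiotics. Each line had 3 control libraries without extract (E1, E2 and E3 in MDA-MB-231; E25, E26 and E27 in HCC1937) and 3 extract libraries (E7, E8 and E9; E31, E32 and E33). Line, medium and extract concentration change together, so they cannot be told apart. The labels name no separate cultures. Every p-value therefore takes libraries as its units, and the spread between libraries of a group may be only technical.

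Cyclins are the regulatory subunits that switch on cyclin-dependent kinases, and they are made and destroyed in turn as a cell passes through its division cycle. D-type cyclins respond to growth signals and, with CDK4 or CDK6, start the phosphorylation of the retinoblastoma protein; E-type cyclins with CDK2 complete it and open S phase. Cyclin A2 works with CDK2 in S phase and with CDK1 later, and the B-type cyclins with CDK1 drive entry into mitosis. Some breast tumours carry extra copies of CCND1 or CCNE1, and inhibitors of CDK4 and CDK6 are used in the clinic.

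Library totals ran from 16170545 to 31337431 counts. Levels are given as CPM after TMM scaling, which takes most genes as unchanged, so a rise or fall is relative to the bulk of genes. The TMM factors were 1.12 to 1.17 in control libraries, 0.846 to 0.988 in extract libraries other than E7, and 0.762 in E7. In bulk RNA, fewer cells in a phase of the cycle and less RNA per cell cannot be told apart. E7 stood apart from the other libraries: 10.7% of its counts were mitochondrial, against 4.63% in E8 and 4.78% in E9, and its Spearman correlation with these was 0.967 and 0.966. Pairs of replicates without E7 had 0.9968 or more. Because E7 widens the spread that all groups share, member calls that change without it are given. Of 7 epithelial markers, HCC1937 controls had 7 at a mean of 1 CPM or more (CDH1 at 186 CPM, EPCAM at 173) and MDA-MB-231 controls 4, with CDH1 and KRT5 at 0, KRT8 at 472 CPM and the mesenchymal VIM at 3736. The summed epithelial markers ranged over 834 to 883 CPM in MDA-MB-231 controls and 2020 to 3452 CPM with extract, and over 4998 to 5187 CPM in HCC1937 controls and 12820 to 12900 CPM with extract. Keratins carried this: in HCC1937 KRT18 (1.76) and KRT8 (1.31) rose while EPCAM (-0.87, edgeR adjusted p = 0.00303) and CDH1 (-0.63, adjusted p = 0.000209) fell. The summed immune list of 5 genes ranged over 303 to 318 CPM and 426 to 527 CPM in MDA-MB-231, and over 64.5 to 67.1 CPM and 181 to 184 CPM in HCC1937, while its defining marker PTPRC was near 0 (means of at most 0.315 CPM). Of the 4 fibroblast markers, DCN was at 0 in all libraries and COL3A1 at means of at most 0.134 CPM. COL1A1 was at 21.4 CPM in MDA-MB-231 controls and 5.78 CPM with extract, and at 18.8 and 6.62 CPM in HCC1937. PDGFRB was at 3.26 CPM in MDA-MB-231 controls and 0.175 CPM in HCC1937 controls. Of 3 endothelial markers, 3 had a mean of 1 CPM or more in HCC1937 controls (PECAM1 at 12.7 CPM) and 0 in MDA-MB-231 controls. The part of these shifts in the results was not tested.

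A second measure was set beside the members' extract effects because their responses tracked the GC content of their transcripts. It is the same fit with an offset that removes, library by library, a smooth average trend with transcript length and GC content, from any source. A dependence on GC content can remain among single genes, as the correlations below show for HCC1937. The members' transcripts (longest protein-coding model of GENCODE 29) were 1948 nt for CDK1 to 6480 nt for CCND2, and 36.9% GC for CCNE2 to 56.2% GC for CCND3. Across the 9 members other than CCND2, log2 fold change and GC content had a Spearman correlation of 0.683 in MDA-MB-231 and 0.933 in HCC1937, which the offset brought to 0.183 and 0.783. Over all 10 it was 0.636 and 0.818, and with the offset 0.152 and 0.612. These are descriptions of genes that share the same libraries. CCNB1, at 43.2% GC, rose in both lines; the other members with GC contents of 36.9% to 44.3% (CCNE2, CDK1, CCNA2 and CCNB2) rose in neither.

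Extract against control asks how treatment changed the cell-cycle transcripts of each line. In both lines CCND1, CCND3, CCNE1 and CCNB1 rose, and CCNE2 and CDK1 fell. CCNA2 fell in HCC1937 and did not pass in MDA-MB-231, and the difference between the lines was itself called. In MDA-MB-231, 4 of 10 members rose (33% of all tested genes did), 2 fell (32.8%) and 4 did not pass at an adjusted p under 0.05 (edgeR quasi-likelihood test, Benjamini-Hochberg over all tested genes). In HCC1937, 4 rose (32.7% of all tested genes), 4 fell (39.1%) and 2 did not pass. Extract and control libraries did not overlap for 7 members in MDA-MB-231 (67.6% of all tested genes) and 9 in HCC1937 (82.1%), so these counts are close to the background. The members' median log2 fold change came to -0.0050 in MDA-MB-231 and to 0.032 in HCC1937, beside 0 and -0.16 over all tested genes. With the offset 3 rose and 1 fell in MDA-MB-231, and 4 rose and 3 fell in HCC1937. Of the 14133 tested genes, 4572 rose and 4668 fell with the offset in MDA-MB-231, and 4374 and 5097 in HCC1937. Without E7, 4 rose and 4 fell in MDA-MB-231, the added falls being CCND2 and CCNA2. In HCC1937 5 rose and 5 fell without E7, the added calls being CDK2 and CCNB2. Calls were more frequent among all 14133 tested genes too. Of these, 5339 rose and 5334 fell without E7 in MDA-MB-231, and 5460 and 6156 in HCC1937.

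**Figure D1:**
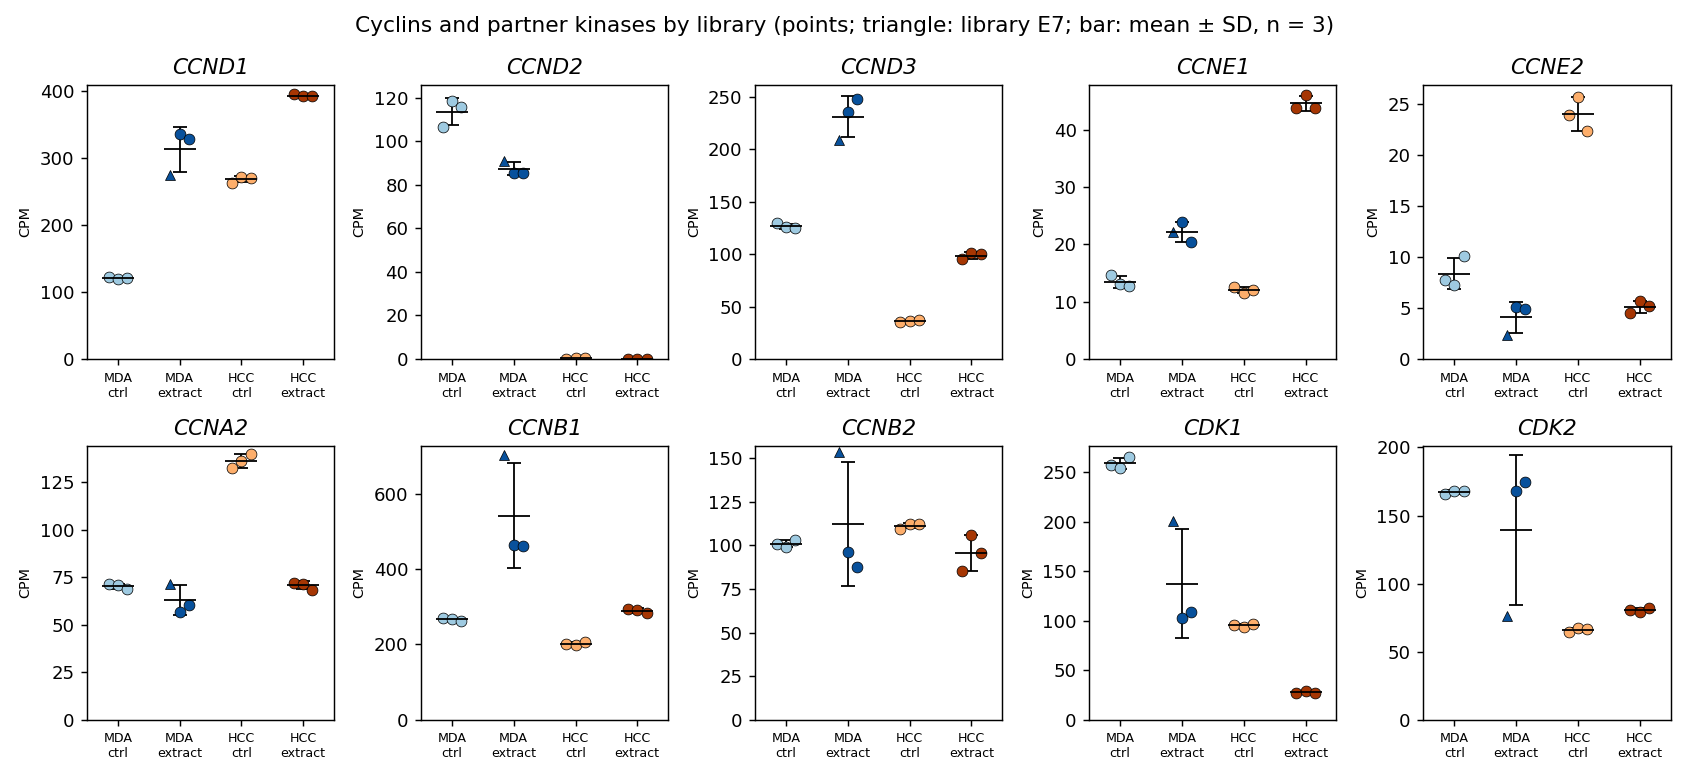
Level of each member in CPM (linear axis from 0) in every library of the 4 groups: points are libraries, the triangle is E7, and bars are the mean ± SD of 3 libraries. CCND1, CCND3, CCNE1 and CCNB1 lie higher and CCNE2 and CDK1 lower with extract in both lines, and E7 lies apart from E8 and E9 for CCNB1, CCNB2, CDK1 and CDK2.

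**Figure D2:**
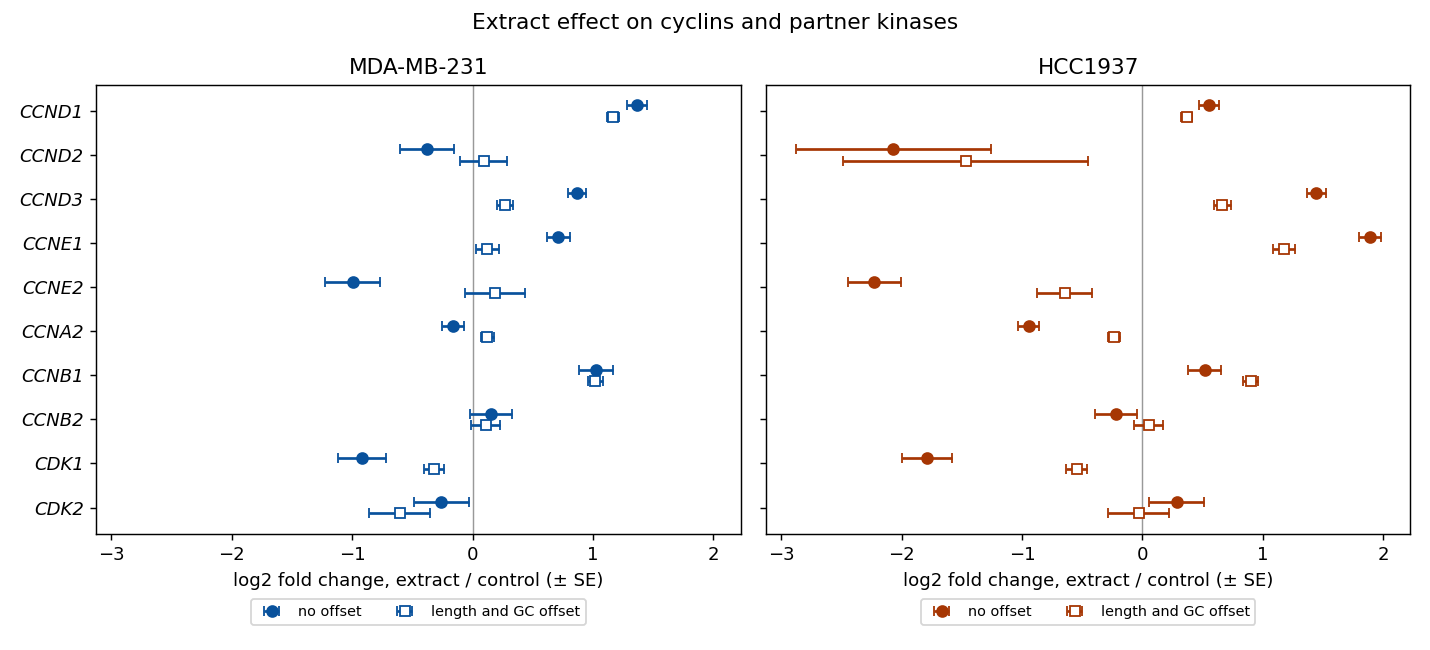
Log2 fold change of extract over control with its standard error for each member, in MDA-MB-231 (left) and HCC1937 (right); filled circles are the fit without offset and open squares the fit with the length and GC offset. CCND1 and CCNB1 stay well above 0 under both fits in both lines, while CCNE2 in MDA-MB-231 moves from -0.99 to 0.18.

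Among the D-type cyclins, CCND1 and CCND3 rose in both lines. CCND1 (Entrez 595; GRCh38 chromosome 11, 69641156 to 69654474) encodes the most studied D-type cyclin of breast epithelium. In MDA-MB-231 it stood at 123, 120 and 122 CPM in the controls and at 275, 336 and 328 CPM in E7, E8 and E9. In HCC1937 it stood at 264, 272 and 270 CPM in the controls and at 396, 393 and 393 CPM with extract. Every extract library was above every control library of its line, and HCC1937 controls lay just below E7. The rise was 2.58-fold in MDA-MB-231 (log2 fold change 1.37 ± 0.08 SE, edgeR adjusted p = 6.2e-08) and 1.47-fold in HCC1937 (0.55 ± 0.08, adjusted p = 7.5e-05). With the offset the log2 fold changes were 1.17 and 0.37, both still called.

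CCND3 (Entrez 896; chromosome 6, 41934933 to 42050035), the D-type cyclin best known from lymphoid cells, went from 129, 126 and 125 CPM in MDA-MB-231 controls to 209, 236 and 248 CPM. In HCC1937 the controls were at 35.5, 36.6 and 36.9 CPM and the extract libraries at 95.0, 101 and 100 CPM. The groups did not overlap in either line, and even HCC1937 with extract stayed below MDA-MB-231 controls. CCND3 rose 1.82-fold in MDA-MB-231 (0.87 ± 0.08, edgeR adjusted p = 1.34e-06) and 2.72-fold in HCC1937 (1.44 ± 0.08, adjusted p = 1.84e-08). The offset lowered these log2 values to 0.27 and 0.66, and both were still called.

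CCND2 (Entrez 894; chromosome 12, 4273762 to 4305353) encodes the remaining D-type cyclin, and its level set the lines apart. MDA-MB-231 had 106, 118 and 116 CPM without and 90.8, 85.5 and 85.6 CPM with extract. These groups did not overlap, but the log2 fold change of -0.38 ± 0.22 did not pass (edgeR adjusted p = 0.156). It passed without E7 (-0.41, adjusted p = 4.06e-05), and with the offset it was 0.091 (adjusted p = 0.701). HCC1937 had 1, 17 and 7 reads in its controls and 3, 2 and 0 with extract. At that depth 3 counts in a library correspond to 0.0990 to 0.121 CPM, and the groups overlapped. The call of the fitted log2 value of -2.07 ± 0.81 (adjusted p = 0.0375) was lost with the offset (adjusted p = 0.221) and without E26 (-1.09, adjusted p = 0.245). It was also lost without E27, E32 or E33 (adjusted p = 0.0525, 0.0726 and 0.122), with limma voom (adjusted p = 0.0599) and in the fit of HCC1937 alone (edgeR adjusted p = 0.0556). It held without E25 or E31, with other scalings and with DESeq2.

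Levels of different genes can be compared only per length, so shares within a cyclin type were taken from CPM per kb of transcript. CCND3 was the main D-type cyclin of MDA-MB-231, with 53.6 ± 0.799% of the D-type level in controls and 52.8 ± 0.852% with extract (SD, n = 3; exact permutation test, two-sided p = 0.4). CCND2 went from 17.8 ± 1.06% to 7.42 ± 0.907% there, and CCND1 from 28.6 ± 0.374% to 39.8 ± 1.25%. In HCC1937 CCND1 held 80.4 ± 0.126% of the D-type level in controls and 68.9 ± 0.780% with extract, while CCND3 went from 19.6 ± 0.127% to 31.1 ± 0.783%. For these 4 shifts the groups did not overlap, and each gave p = 0.1 by the exact two-sided permutation test, the smallest that 3 libraries against 3 allow. The summed D-type level went from 98.6 ± 0.427 to 183 ± 15.1 CPM per kb in MDA-MB-231 and from 77.6 ± 1.36 to 133 ± 0.907 in HCC1937. Shares within a library do not depend on its scaling, but they do move with the GC content of the transcripts, which was 50.3% for CCND1, 45.5% for CCND2 and 56.2% for CCND3.

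**Figure D3:**
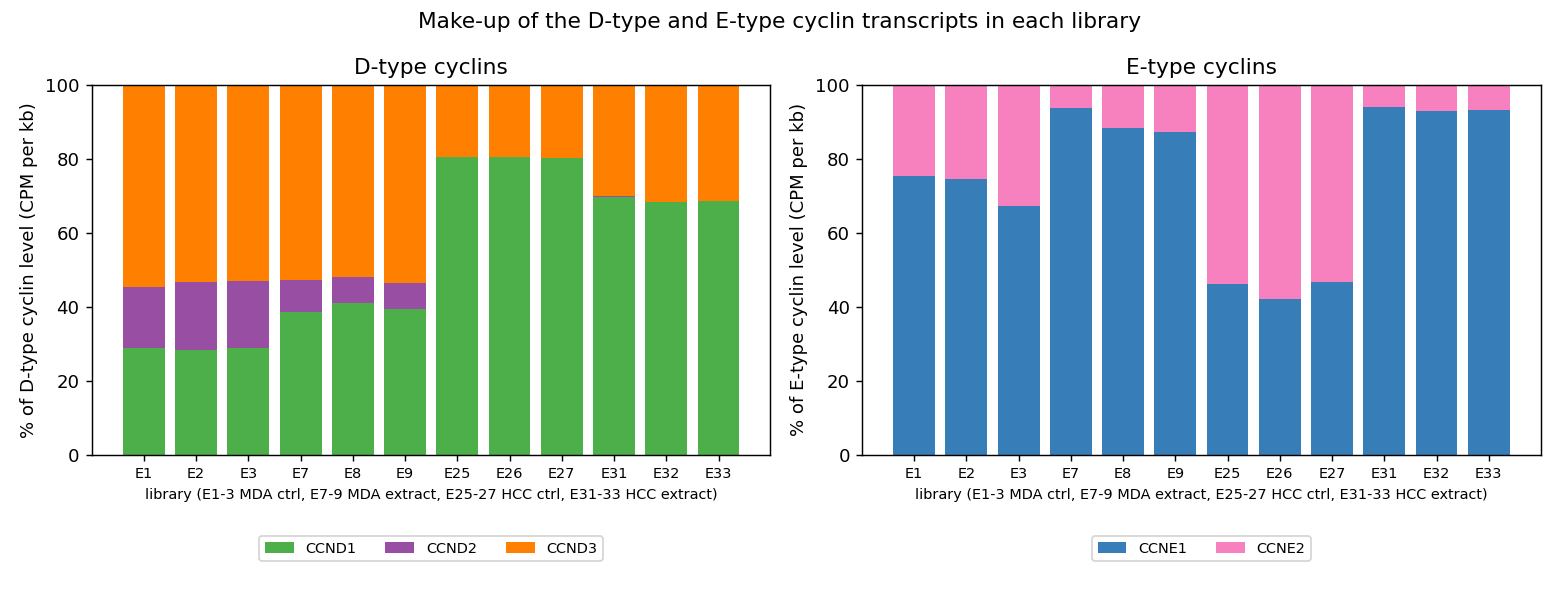
Share of each D-type cyclin (left) and each E-type cyclin (right) in the summed level of its type, in percent of CPM per kb, for each of the 12 libraries. CCND1 fills 80.3% to 80.5% of the D-type level in HCC1937 controls, and CCNE1 fills 93.0% to 94.1% of the E-type level in HCC1937 with extract against 42.1% to 46.7% in its controls.

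The E-type cyclins moved in opposite directions. CCNE1 (Entrez 898; chromosome 19, 29811991 to 29824312), whose amplification marks a class of aggressive tumours, went from 14.7, 13.1 and 12.7 CPM in MDA-MB-231 controls to 22.1, 23.9 and 20.4 CPM. In HCC1937 it stood at 12.6, 11.5 and 12.0 CPM in controls and at 43.9, 46.1 and 43.9 CPM with extract, the highest of the 4 groups. It rose 1.64-fold in MDA-MB-231 (0.71 ± 0.09, edgeR adjusted p = 3.29e-05) and 3.71-fold in HCC1937 (1.89 ± 0.09, adjusted p = 8.55e-09). With the offset the HCC1937 rise was 1.18 and still called, while the MDA-MB-231 value was 0.12 and not called (adjusted p = 0.275).

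CCNE2 (Entrez 9134; chromosome 8, 94880224 to 94896693), the second activator of CDK2 at the start of S phase, stood at 7.79, 7.27 and 10.1 CPM in MDA-MB-231 controls and at 2.35, 5.06 and 4.88 CPM in E7, E8 and E9. In HCC1937 the controls were at 24.0, 25.7 and 22.4 CPM and the extract libraries at 4.49, 5.67 and 5.24 CPM. HCC1937 controls lay above all other groups, and the extract groups of the 2 lines overlapped. CCNE2 fell in MDA-MB-231 (-0.99 ± 0.23, edgeR adjusted p = 0.00243) and in HCC1937 (-2.23 ± 0.22, 4.68-fold lower, adjusted p = 2.23e-06). With the offset the values were 0.18 (adjusted p = 0.541) and -0.65 (adjusted p = 0.0234), so only the HCC1937 fall was then called; with the offset and without E7 the MDA-MB-231 value was 0.46 and called (adjusted p = 0.00875).

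Per kb, CCNE1 went from 72.4 ± 4.48% to 89.8 ± 3.55% of the E-type level in MDA-MB-231. In HCC1937 it went from 45.0 ± 2.52% to 93.4 ± 0.590% (SD, n = 3; p = 0.1 in each line, exact two-sided permutation test). CCNE2 was thus the more abundant E-type transcript in HCC1937 controls and CCNE1 in each of the other 3 groups. The transcripts differ in GC content, at 52.9% for CCNE1 and 36.9% for CCNE2.

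CCNA2 and CDK2 act together in S phase. In HCC1937 the CCNA2 transcript fell while CDK2 did not pass, and in MDA-MB-231 neither passed. CCNA2 (Entrez 890; chromosome 4, 121816444 to 121823883) stood at 71.4, 70.8 and 68.7 CPM in MDA-MB-231 controls and at 71.6, 56.6 and 60.4 CPM in E7, E8 and E9. E7 lay above the controls and the other extract libraries below them, and the log2 fold change of -0.16 ± 0.09 did not pass (edgeR adjusted p = 0.13); without E7 it was -0.26 and passed (adjusted p = 5.14e-05). In HCC1937 CCNA2 went from 133, 136 and 140 CPM to 72.2, 71.6 and 68.4 CPM, a 1.93-fold fall (-0.94 ± 0.09, adjusted p = 1.64e-06). With the offset that fall was -0.24 and still called, and the MDA-MB-231 value was 0.12 (adjusted p = 0.0614). HCC1937 with extract therefore sat at the level of MDA-MB-231 controls.

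CDK2 (Entrez 1017; chromosome 12, 55966830 to 55972789) stood at 166, 168 and 168 CPM in MDA-MB-231 controls, at 168 and 175 CPM in E8 and E9, and at 75.9 CPM in E7. The log2 fold change was -0.26 ± 0.23 (edgeR adjusted p = 0.336) with E7 and 0.037 ± 0.04 without it (adjusted p = 0.422). In HCC1937 the controls were at 64.8, 67.6 and 66.4 CPM and the extract libraries at 80.8, 79.1 and 82.4 CPM, with no overlap. The HCC1937 value of 0.29 ± 0.23 did not pass (adjusted p = 0.282) in the fit whose spread is shared with MDA-MB-231. In the fit of the HCC1937 libraries alone it was 0.34 ± 0.05 and called (adjusted p = 2.28e-08), without E7 it was 0.31 and called (adjusted p = 5.92e-08), and with the offset it was -0.031 (adjusted p = 0.934). In MDA-MB-231 the offset gave -0.60 (adjusted p = 0.0528), and -0.27 with a call without E7 (adjusted p = 8.06e-08).

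CCNB1 rose in both lines while its partner kinase CDK1 fell. CCNB1 (Entrez 891; chromosome 5, 69167150 to 69178245), the main cyclin of mitotic entry, stood at 269, 266 and 263 CPM in MDA-MB-231 controls and at 702, 464 and 461 CPM in E7, E8 and E9. In HCC1937 it went from 201, 199 and 208 CPM to 295, 290 and 283 CPM. Each extract library lay above each control library, and E7 lay far above E8 and E9. The rise was 2.04-fold in MDA-MB-231 (1.03 ± 0.14, edgeR adjusted p = 4.58e-05; 0.80 without E7) and 1.43-fold in HCC1937 (0.52 ± 0.14, adjusted p = 0.00533). With the offset the values were 1.02 and 0.90, both called.

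CCNB2 (Entrez 9133; chromosome 15, 59105146 to 59125045), the B-type cyclin found at the Golgi, did not pass in either line. It stood at 101, 98.9 and 103 CPM in MDA-MB-231 controls and at 153, 96.1 and 87.3 CPM in E7, E8 and E9, so E7 alone lay above the controls. Its log2 fold change was 0.15 ± 0.17 (edgeR adjusted p = 0.459), and -0.13 without E7 (adjusted p = 0.0589). In HCC1937 it went from 110, 112 and 112 CPM to 85.1, 106 and 95.5 CPM (-0.22 ± 0.17, adjusted p = 0.27), with no overlap. The HCC1937 libraries alone gave -0.16 and a call (adjusted p = 0.00473), as did the fit without E7 (-0.20, adjusted p = 0.00166), and the offset gave 0.052 (adjusted p = 0.722).

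CDK1 (Entrez 983; chromosome 10, 60778331 to 60794852), the kinase that drives mitosis, stood at 258, 255 and 265 CPM in MDA-MB-231 controls and at 201, 103 and 109 CPM in E7, E8 and E9. In HCC1937 it went from 96.1, 94.1 and 96.6 CPM to 27.2, 28.97 and 27.01 CPM. The 4 groups did not overlap at all. CDK1 fell 1.89-fold in MDA-MB-231 (-0.92 ± 0.20, edgeR adjusted p = 0.00171; -1.29 without E7) and 3.45-fold in HCC1937 (-1.79 ± 0.21, adjusted p = 9.63e-06). With the offset both falls were smaller and still called, at -0.32 (adjusted p = 0.00508) and -0.55 (adjusted p = 0.000126).

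The level of CCNB1 relative to CDK1 was higher in every extract library than in any control library. Per kb, the ratio of CCNB1 to CDK1 was 0.939, 0.939 and 0.891 in MDA-MB-231 controls and 3.14, 4.06 and 3.79 in E7, E8 and E9. In HCC1937 it was 1.88, 1.90 and 1.93 in controls and 9.74, 9.00 and 9.40 with extract. The ratio of CCNB1 to CCNB2 went from 3.05 ± 0.0867 to 5.65 ± 0.408 in MDA-MB-231 and from 2.10 ± 0.0512 to 3.52 ± 0.432 in HCC1937 (SD, n = 3). For both ratios the groups did not overlap in either line (p = 0.1, exact two-sided permutation test). CDK1 over CDK2 went from 1.70 ± 0.0563 to 0.405 ± 0.0239 in HCC1937; in MDA-MB-231 it was 1.79 to 1.86 in controls, 0.719 and 0.737 in E8 and E9, and 3.12 in E7. These ratios carry no GC offset, and the transcripts differ in GC content (37.0% for CDK1, 43.2% for CCNB1, 44.3% for CCNB2 and 48.4% for CDK2). With the offset the HCC1937 log2 fold changes were 0.90 for CCNB1, -0.55 for CDK1, -0.031 for CDK2 and 0.052 for CCNB2. Without it they were 0.52, -1.79, 0.29 and -0.22. With the offset CDK1 thus lay closer to CCNB1 and to CDK2, while CCNB1 did not lie closer to CCNB2 or to CDK2.

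**Figure D4:**
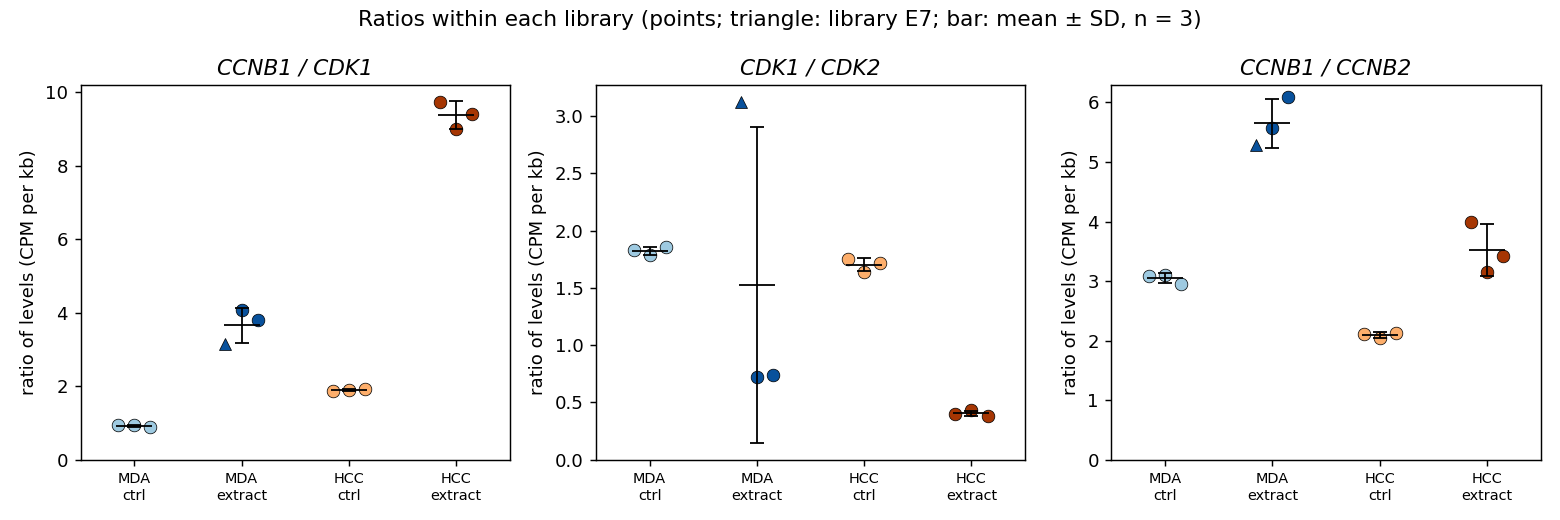
Ratio of levels in CPM per kb (linear axis from 0) within each library for CCNB1 over CDK1, CDK1 over CDK2 and CCNB1 over CCNB2: points are libraries, the triangle is E7, and bars are the mean ± SD of 3 libraries. CCNB1 over CDK1 is between 0.891 and 1.93 in the 6 control libraries and between 3.14 and 9.74 in the 6 extract libraries.

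The promoters of the genes for mitotic cyclins and CDK1 are known to share CCAAT boxes, bound by NF-Y, and a cell cycle homology region (CHR), bound by the MuvB complex. They are shown because genes with these elements moved in different directions here. RefSeq promoter windows (GRCh38.p14, 250 bases before to 50 bases after the start) were matched for 6 members: CCND3, CCNE1, CCNA2, CCNB1, CCNB2 and CDK1; CCND1, CCND2, CCNE2 and CDK2 were not. The motifs searched on both strands were CCAAT, the CHR as TTTGAA or TTTAAA, and, for E2F, TTCCCGC as well as TTCGCGC as well as TTGGCGC as well as TTGCCGC. The last 170 bases before the start are printed 5′ to 3′ on the gene's strand, at chr5:69166980-69167149 (CCNB1, plus strand), chr15:59104976-59105145 (CCNB2, plus strand), chr10:60778161-60778330 (CDK1, plus strand) and chr4:121823884-121824053 (CCNA2, minus strand). Capitals mark every match to these motifs, and ATTGG is CCAAT on the opposite strand.
CCNB1: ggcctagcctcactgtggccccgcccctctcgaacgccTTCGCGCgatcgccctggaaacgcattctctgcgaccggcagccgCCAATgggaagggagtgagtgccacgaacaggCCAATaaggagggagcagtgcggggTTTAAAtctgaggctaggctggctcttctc
CCNB2: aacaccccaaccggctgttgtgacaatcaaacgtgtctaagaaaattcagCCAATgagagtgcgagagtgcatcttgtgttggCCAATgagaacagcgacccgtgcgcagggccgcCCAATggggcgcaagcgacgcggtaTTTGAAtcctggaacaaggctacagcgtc
CDK1: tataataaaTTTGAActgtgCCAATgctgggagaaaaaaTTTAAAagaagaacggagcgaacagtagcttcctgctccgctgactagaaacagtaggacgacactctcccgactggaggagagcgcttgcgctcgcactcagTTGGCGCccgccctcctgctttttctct
CCNA2: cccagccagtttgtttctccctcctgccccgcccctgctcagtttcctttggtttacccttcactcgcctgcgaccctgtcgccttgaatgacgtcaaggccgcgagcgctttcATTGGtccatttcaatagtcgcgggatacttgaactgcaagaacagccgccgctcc

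CCNB1 and CCNB2 have the same layout near the start, with the CHR match at -30 and -29 and CCAAT at -87 and -55 in CCNB1 and at -120, -87 and -54 in CCNB2 (first base of the match, the base before the start being -1). CCNB2 has a further CCAAT at -244 and TTTAAA at -193, outside the printed stretch. CDK1 has its CCAAT at -150, between CHR matches at -161 and -131, and E2F matches at -28 and at 21 after the start. CCNA2 has a single CCAAT at -56, and CCNE1 a single TTTAAA at -28. CCND3 has no match in its window (chromosome 6, 42048639 to 42048938), which lies inside the gene span given above, short of its end at 42050035. Other spellings of these motifs were not searched, so a missing match does not mean a missing element. Of 27305 windows of the same length, 35.7% hold CCAAT, 24.3% a CHR match, 13.1% an E2F match, and 2.77% at least 2 CCAAT boxes and a CHR match, as CCNB1 and CCNB2 do. CCNB1 rose in both lines and CCNB2 passed in neither. Such matches describe letters in a window and not bound sites.

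The comparison of untreated lines gives the levels from which the extract effects start. HCC1937 controls were higher than MDA-MB-231 controls for 3 of 10 members (38.7% of all tested genes were higher), lower for 5 (36.7%) and not passed for 2, where 75.3% of all tested genes were called. All 10 pairs of control groups were without overlap, as were 88.3% of all tested genes. CCNE2 was 2.86-fold higher (1.52 ± 0.21, edgeR adjusted p = 4.27e-05), CCND1 2.21-fold (1.15 ± 0.08, adjusted p = 1.36e-07) and CCNA2 1.94-fold (0.95 ± 0.09, adjusted p = 1.33e-06). CCND2 had 25 reads over the HCC1937 controls and 6766 over the MDA-MB-231 controls, a log2 difference of -8.57 ± 0.36 (adjusted p = 1.39e-09). CCND3 (-1.80), CDK1 (-1.44), CDK2 (-1.34) and CCNB1 (-0.40, adjusted p = 0.021) were lower too. The CCNB1 call was lost without E1, E25 or E26 (adjusted p = 0.0523 to 0.0585). CCNE1 (-0.16) and CCNB2 (0.14) did not pass; CCNE1 passed with the offset (-0.28, adjusted p = 0.0166), with DESeq2 size factors (-0.24, adjusted p = 0.0377) and without E7 (-0.20, adjusted p = 0.0449). With the offset 3 were higher and 6 lower, beside 5443 and 5986 of the 14133 tested genes.

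The extract effect differed between the lines for 6 of 10 members by the interaction test, beside 32.1% of all tested genes. HCC1937 minus MDA-MB-231 was above 0 for 2 (11.5% of all tested genes) and below 0 for 4 (20.6%). The rise of CCNE1 was larger in HCC1937 by 1.18 ± 0.13 on the log2 scale (edgeR adjusted p = 5.55e-05), and that of CCND3 by 0.57 ± 0.11 (adjusted p = 0.00204). The rise of CCND1 was smaller in HCC1937 (-0.82 ± 0.12, adjusted p = 0.000316). CCNA2 (-0.78 ± 0.13, adjusted p = 0.000722), CCNE2 (-1.23 ± 0.31, adjusted p = 0.0111) and CDK1 (-0.87 ± 0.28, adjusted p = 0.036) were lower in HCC1937 by this difference. With the offset the calls for CCND1 (-0.80), CCND3 (0.40), CCNE1 (1.05) and CCNA2 (-0.36) held, and those for CCNE2 (-0.83, adjusted p = 0.0702) and CDK1 (-0.23, adjusted p = 0.161) did not. The CDK1 call was also lost with DESeq2 size factors (adjusted p = 0.0692) and without any single control library or any single HCC1937 extract library (adjusted p = 0.0645 to 0.0814). CCNB1 did not pass (-0.51 ± 0.20, adjusted p = 0.067) but did without E7 (-0.26), E8 (-0.60) or E9 (-0.61), and CDK2 (0.54 ± 0.32, adjusted p = 0.227) did without E7 (0.27, adjusted p = 2e-04). Over all tested genes the median of this difference was -0.16, and of the calls 35.9% were above 0, against -0.053 and 46.9% with DESeq2 size factors.

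Ordered by level per kb, CDK1 (133 ± 2.74 CPM per kb) and CCNB1 (123 ± 1.45) led in MDA-MB-231 controls, without overlap, followed by CDK2 (72.9) and CCND3 (52.9). CCNB1 led in the other 3 groups: at 250 ± 64.0 CPM per kb in MDA-MB-231 with extract, 93.3 ± 2.15 in HCC1937 controls and 133 ± 2.90 in HCC1937 with extract. CDK1 came after CCND3 and CCND1 in MDA-MB-231 with extract (70.6 ± 28.3), where its range overlapped those of CCND3, CCND1, CDK2 and CCNB2. In HCC1937 it came after CCND1 in controls (49.1 ± 0.689), beside CCNA2 (48.7 ± 1.34) whose range overlapped, and after CCNE1 with extract (14.2 ± 0.556), above CCNE2 and CCND2 alone. CCNE2 or CCND2 was last in every group.

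Other genes of the pathway were taken from 8 lists, and the counts of each are to be read against 33% rising and 32.8% falling in MDA-MB-231 and 32.7% and 39.1% in HCC1937. Counts with the offset stand beside 4572 rising and 4668 falling of 14133 tested genes in MDA-MB-231. In HCC1937 these were 4374 and 5097. The kinases of the D-type cyclins went apart. CDK4 rose from 149 to 467 CPM in MDA-MB-231 (1.65 ± 0.17, edgeR adjusted p = 5.98e-06) and from 77.0 to 266 CPM in HCC1937 (1.79 ± 0.18, adjusted p = 2.35e-06), or 1.03 and 1.05 with the offset. CDK6 fell from 62.0 to 21.8 CPM (-1.50, adjusted p = 4e-06) and from 44.8 to 8.01 CPM (-2.48, adjusted p = 6.56e-08), but with the offset was 0.31 in MDA-MB-231, a call in the other direction (adjusted p = 0.00401), and -0.51 in HCC1937. MNAT1 of the CDK-activating kinase fell in both lines (-0.71 and -1.31). With the offset it was at 0.21 and 0.14, a change of sign without a call. CCNH, the cyclin of that complex, fell as well (-0.62 and -1.42, edgeR adjusted p = 0.0477 and 0.000633). With the offset CCNH was at 0.27 and 0.052, again a change of sign without a call. Without E7 it was at -1.11 in MDA-MB-231. Of the 5 genes in this list 1 rose and 3 fell in each line, with medians of -0.62 and -1.31. With the offset the medians turned to 0.27 (2 rose, 0 fell) and 0.14 (2 rose, 1 fell).

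CDK inhibitors fell for 4 of 7 in MDA-MB-231 and rose for 1, with a median log2 fold change of -0.50; in HCC1937, 2 rose, 1 fell and 4 did not pass (median 0.17). With the offset 0 rose and 5 fell in MDA-MB-231 (median -1.37), and 2 rose and 4 fell in HCC1937, where the median turned to -0.51. CDKN1B (p27), which restrains CDK2, fell from 162 to 52.2 CPM (-1.63, edgeR adjusted p = 2.05e-08) and from 86.5 to 42.4 CPM (-1.03, adjusted p = 5.41e-07), and with the offset by more, at -1.89 and -1.18. CDKN1C (p57, -2.39, adjusted p = 2.64e-07) and CDKN2C (p18, -1.37, adjusted p = 8.14e-07) fell in MDA-MB-231, and with the offset were at -3.17 and -1.86. In HCC1937 neither was called without the offset, CDKN1C at 0.41 (adjusted p = 0.166) and CDKN2C at -0.18 (adjusted p = 0.171). With the offset both were called as falls there (-0.51 and -0.87), a change of sign for CDKN1C. Its HCC1937 means were low, at 0.930 CPM in controls and 1.24 CPM with extract. CDKN1A (p21) rose from 38.6 to 148 CPM in HCC1937 (1.93, adjusted p = 2.24e-09), as did CDKN2A, which encodes p16, an inhibitor of CDK4 and CDK6, and ARF (1.01, adjusted p = 1.41e-05). With the offset CDKN1A was at 1.11 and called, and CDKN2A at -0.12 and no longer called. In MDA-MB-231 CDKN1A was the inhibitor that rose (0.45, adjusted p = 0.000142), but the offset gave -0.15, a call in the other direction (adjusted p = 0.0359). CDKN2A and CDKN2B had no reads in any MDA-MB-231 library, which allows up to 0.115 to 0.213 CPM (3 counts, counting error only).

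Of 7 genes that control CDK phosphorylation or bind CDKs as CKS subunits, 3 rose and 1 fell in MDA-MB-231 (median 0.075), and 5 rose and 2 fell in HCC1937 (median 1.07). With the offset 2 rose and 3 fell (median -0.076), and 5 rose and 1 fell (median 0.53). The phosphatase CDC25A, which activates CDK2 and CDK1, rose from 14.6 to 65.9 CPM (2.18 ± 0.11, edgeR adjusted p = 1.6e-08) and from 34.7 to 112 CPM (1.69 ± 0.11, adjusted p = 5.93e-08). PKMYT1, an inhibitory kinase of CDK1, rose as well (1.75 and 1.29), and CDC25B rose from 237 to 506 CPM in HCC1937 (adjusted p = 9.33e-08). CDC25A and PKMYT1 were called as rises with the offset in both lines. The inhibitory kinase WEE1 fell in MDA-MB-231 (-0.70, adjusted p = 0.00711) and HCC1937 (-1.03, adjusted p = 0.000476), but not with the offset (-0.052 and 0.029).

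In the RB and E2F list 6 of 13 rose and 4 fell in MDA-MB-231 (median 0.16), and 3 rose and 6 fell in HCC1937 (median -0.32). With the offset 6 rose and 2 fell (median 0.46), and 3 rose and 4 fell (median -0.089). RB1, the substrate of the cyclin D and E kinases, fell from 70.7 to 16.7 CPM (-2.07, edgeR adjusted p = 1.64e-07) and from 53.1 to 9.09 CPM (-2.54, adjusted p = 2.81e-08), or -0.64 and -0.78 with the offset, both called. The repressor E2F4 rose (1.44 and 1.14), TFDP1, the dimer partner of E2F factors, rose (0.99 and 0.23), and the RB relative RBL1 fell (-1.24 and -2.08). With the offset RBL1 was at -0.063 in MDA-MB-231, no longer called (adjusted p = 0.722), and at -0.58 in HCC1937, while E2F4 (0.81 and 0.28) and TFDP1 (0.79 and 0.21) were called. Of 7 genes of the MuvB complex with MYBL2 and FOXM1, 3 rose and 3 fell in each line (medians 0.35 and 0.11), or with the offset 4 and 1 (median 0.32) and 3 and 2 (median 0.14). MYBL2 (B-MYB), the MuvB partner that activates late cell-cycle genes, rose from 139 to 333 CPM and from 375 to 1013 CPM (1.26 and 1.43; 0.70 and 0.72 with the offset). The MuvB subunits LIN9 (-1.54 and -1.80; -0.94 and -0.79 with the offset) and LIN54, which binds the CHR (-1.07 and -2.33), fell; LIN54 was at 0.32 with the offset in MDA-MB-231, a call in the other direction.

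Among 15 genes of cyclin degradation, 5 rose and 4 fell in MDA-MB-231 (median 0.095) and 6 rose and 6 fell in HCC1937 (median -0.069). With the offset 6 rose and 3 fell (median 0.15), and 6 rose and 5 fell (median 0.12). CDC20, the activator that directs the anaphase-promoting complex to cyclin B, rose from 184 to 589 CPM (1.68 ± 0.11, edgeR adjusted p = 7.86e-08) and from 277 to 658 CPM (1.25 ± 0.10, adjusted p = 5.82e-07), and with the offset by 0.97 and 0.30. FBXO5 (EMI1), an inhibitor of that complex, fell from 53.4 to 16.5 CPM (-1.70) and from 28.6 to 7.40 CPM (-1.95), or -1.14 and -0.86 with the offset. CDC27, a subunit of the complex, fell (-1.39 and -1.75) but was called in the other direction with the offset (0.26 and 0.18). Of 10 other cyclins and CDKs 3 rose and 5 fell in each line (medians -0.49 and -0.76). With the offset 3 rose and 5 fell in MDA-MB-231 (median -0.35), and 2 rose and 3 fell in HCC1937, where the median turned to 0.039. CCNG2 fell in both (-1.37 and -1.77) and the transcription kinase CDK9 rose in both (0.84 and 1.15); CCNG1 (-1.45 and -1.27) and CDK8 (-0.37 and -0.63) fell in both. With the offset CCNG1 was at -0.018 in HCC1937 and not called; CCNG2 (-0.37 and -0.43), CDK9 (0.26 and 0.42) and CDK8 (-0.37 and -0.40) were called in both lines.

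The 3 proliferation markers did not share a direction. MKI67 fell from 282 to 32.2 CPM in MDA-MB-231 (-3.12 ± 0.29, edgeR adjusted p = 2.19e-06) and from 791 to 202 CPM in HCC1937 (-1.97 ± 0.28, adjusted p = 5.15e-05), and TOP2A, the mitotic topoisomerase, fell too (-4.18 and -3.03). With the offset MKI67 was at -2.69 and -1.34 and TOP2A at -2.85 and -1.38, all called. PCNA, the replication clamp, rose in MDA-MB-231 (1.02, adjusted p = 0.000107) and was at -0.024 in HCC1937 (adjusted p = 0.907), or -0.23 with the offset (adjusted p = 0.00345).

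The genes outside the members with the most similar pattern over the 12 libraries are given by Pearson correlation of log2 CPM, as a description in which the libraries of a group and the line difference are shared. CDK1 was nearest to SUGT1 (0.998) and MNAT1 (0.997), CDK2 to genes that include CTNNA1 (0.995), and CCNB1 to NAGK (0.997) and LGALS3BP (0.996). CCND1 was nearest to MICALL1 (0.994) and TOE1 (0.992), CCND2 to BMERB1 and TSPAN12 (both 0.997), and CCND3 to VAT1 (0.997) and CSRNP1 (0.996). CCNE1 was nearest to SH2D2A and EEF2 (both 0.994), CCNE2 to SASH1 and RAPGEF5 (both 0.993), and CCNA2 to CAV1 (0.995) and TSNAX (0.991). CCNB2 had no gene above 0.926 (CALM2). Among the members themselves CDK1 and CCNB1 had a correlation of 0.137, and CCND3 and CCNA2 one of -0.938.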

How the data were processed

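The deposited table holds expected counts, the estimated number of reads per gene, as the authors deposited them. The submitters' processing notes name FastQC 0.12.1, fastp 0.23.4, Salmon 1.10.3, DESeq2 and R 4.4.1, and the build GRCh38, without their roles. How transcripts were annotated and summed to genes is not given in the sources used here. Groups come from the sample titles, since the cell line field counts upward along the samples. Of all values 52.8% were not whole and were rounded; 1 row without a symbol was left out.

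The fit used edgeR 4.0.16 (R 4.3.3): filterByExpr on the 4 groups, TMM, 1 model for all 12 libraries, quasi-likelihood F test, Benjamini-Hochberg over 14133 genes. The offset is a smooth surface of log length and GC per library (mgcv 1.9.3), with values for 99.4% of tested genes. Alternatives were DESeq2 1.42.0, limma 3.58.1 (voom), other scalings, no filter, each line alone and each library left out. The tests were also run on simulated data whose spread was estimated without E7, so these say nothing of the spread that E7 adds. CPM uses TMM library sizes. Replicate pairs differed by more than counting noise. Members and lists were chosen with earlier results of these data known. Named genes are the members, the 2 most similar genes of each, and per list the 3 smallest p in each line. Some genes that the rule names are not reported here. CCNH and CDKN2B were added after their values were seen.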

Additional observations from a re-analysis of the deposited data

Results flagged for a closer look

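The extract effect differed between HCC1937 and MDA-MB-231 by the interaction test for 6 members, given here as HCC1937 minus MDA-MB-231 on the log2 scale: -0.82 for CCND1, 0.57 for CCND3, 1.18 for CCNE1, -1.23 for CCNE2, -0.78 for CCNA2 and -0.87 for CDK1. Without the offset CCND1, CCND3 and CCNE1 rose in both lines and CDK1 fell in both. With the offset the CCNE1 value in MDA-MB-231 was 0.12 and not called (edgeR adjusted p = 0.275). CCNE2 fell in both without the offset, but with it was at 0.18 in MDA-MB-231 and -0.65 in HCC1937. Extract concentration and medium differ with the line and cannot be told apart from it. Without E7 all 6 differences were called, at -0.88, 0.53, 1.20, -1.45, -0.66 and -0.47 in that order. CCNB1 (-0.26, edgeR adjusted p = 3.4e-05) and CDK2 (0.27, adjusted p = 2e-04) were then called as well. Over all 14133 tested genes, 3579 differences were above 0 and 4761 below 0 without E7. With the length and GC offset the differences for CCNE2 (-0.83, adjusted p = 0.0702) and CDK1 (-0.23, adjusted p = 0.161) were not called. With the offset and without E7 CCNE2 was called (-1.11), while CDK1 (-0.097, adjusted p = 0.145) and CCNB1 (-0.036, adjusted p = 0.458) were not.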

How the results depend on the processing

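No paired analysis was possible because the groups share no replicate numbers. Of 580 single-gene values under alternatives, 518 kept their direction and side of the threshold, 25 lost a call, 24 gained one and 13 changed sign. A value that changed sign was counted only as that, also where a call was lost. Fits without a library were counted only for comparisons whose groups held it, so those without E7 are not counted for HCC1937 or the untreated lines. In MDA-MB-231 the number of members that fell, 2, was 1 with the length and GC offset, 4 with limma voom and 2 to 4 when single libraries were left out (4 without E7). In HCC1937 the number that fell, 4, was 3 with the offset and 3 to 4 when single HCC1937 libraries were left out, the lost call being CCND2. The number with a lower effect in HCC1937, 4, was 2 with the offset and 3 to 5 when single libraries were left out. Signs changed in MDA-MB-231 with the offset for CCND2 (0.091), CCNE2 (0.18) and CCNA2 (0.12), for CCNB2 and CDK2 with voom (-0.13 and 0.024) and without E7 (-0.13 and 0.037; single libraries left out gave -0.13 to 0.30 and -0.45 to 0.037), and with the offset and without E7, a setting added after seeing the data, for CCNE2 (0.46), CCNA2 (0.093) and CCNB2 (-0.072). In HCC1937 they changed with the offset for CCNB2 (0.052) and CDK2 (-0.031), and in the difference between the lines for CCNB2 with the offset and without E7 (0.13). The cause was not tested. Over all tested genes, 1630 differences between the lines were above 0, or 2543 with the offset, 3591 with voom, 3579 without E7 and 3762 with the offset and without E7; 2909 were below 0, or 5026 with voom and 4761 without E7. DESeq2 size factors shifted the median of that difference by 0.11. Depth limits CCND2 in HCC1937, with 25 and 5 reads per group.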
